A study of Homo sapiens with 6 samples.

Results

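IFIT2, IFI6 and IFI27 are 3 interferon-stimulated genes, taken by name from a table of 402 genes that the study's authors marked as higher after knockdown of YTHDC2. They were selected on their FPKM difference between the groups, through the authors' fold and q-value, so that difference is described below without a test.

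The 6 RNA sequencing libraries came from CAL-27, a long-established line of oral squamous carcinoma cells. The genotype label was NC for 3 of them (n = 3), which the labels do not spell out, and shYTHDC2 for the others (n = 3), a CAL-27 line in which YTHDC2 was knocked down. YTHDC2 is an RNA helicase with a reader domain for N6-methyladenosine, a methyl mark on RNA. The labels number the libraries as biological replicates, and do not say whether they came from separate cultures, which hairpin was used or whether the line was a clone. Levels are given as FPKM, fragments scaled to transcript length and library total, with the depth of each library unknown.

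Interferons are secreted proteins that cells release on sensing foreign nucleic acid. Type I interferon acts through the receptor IFNAR1 and IFNAR2 and the kinases JAK1 and TYK2. The signal ends at the interferon-stimulated response element in the promoters of target genes, among them those described here. IFIT2 is a cytoplasmic RNA-binding protein with tetratricopeptide repeats that restricts some viruses. IFI6 and IFI27 are small hydrophobic proteins of one family, of which IFI6 has been placed at the endoplasmic reticulum and mitochondria and IFI27 at mitochondria and the nuclear envelope. In the deposited Reactome annotation, all 3 genes share the event of expression of interferon-induced genes through this element, and they are the 3 genes carrying it among 161 with a Reactome entry that was read.

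The promoters of IFI6 and IFI27 are printed to show the response element. They are the 2 of the 3 genes matched by symbol to the promoter table, and the promoter of IFIT2 was not searched. Each stretch runs from 200 to 31 bases before the transcript start on the strand of the gene, from RefSeq in GRCh38.p14. For IFI27 this is the first of its 2 RefSeq starts, at 94110736, the other being at 94110815. Capitals mark the core of the response element, searched as GAAA, any 2 bases, and GAAA again, on both strands. The IFI6 stretch is chr1:27672223-27672392 on the minus strand and the IFI27 stretch is chr14:94110536-94110705 on the plus strand.
IFI6: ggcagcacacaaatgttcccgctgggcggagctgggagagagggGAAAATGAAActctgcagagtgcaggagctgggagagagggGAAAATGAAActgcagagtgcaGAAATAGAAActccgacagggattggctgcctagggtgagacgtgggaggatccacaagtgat
IFI27: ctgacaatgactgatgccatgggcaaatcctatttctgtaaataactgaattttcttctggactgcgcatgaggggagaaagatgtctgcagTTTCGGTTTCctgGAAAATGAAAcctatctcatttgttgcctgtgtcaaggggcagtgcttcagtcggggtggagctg

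IFI6 held 3 matches, which begin 156, 115 and 93 bases before the transcript start, all reading along the gene's strand. The first 2 lie in a tandem repeat: a run of 29 identical bases occurs in 2 copies spaced 41 bases apart. IFI27 held 2 matches, which begin 108 and 95 bases before its start and read in opposite directions. All 5 matches in both promoters were followed by a C on the strand of the match, which is a longer form of the element.

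Among 27305 promoters of the same length in the RefSeq table, 3.65% held the core once or more, 0.271% held at least 2 matches and 0.0403% held at least 3, as IFI6 does. The longer form was in 0.798% of them. Of the 234 listed genes matched to a promoter by symbol, 9 held the core (3.85%), close to the share over all promoters, and 4 held the longer form (1.71%), IFI6 and IFI27 among them. IFI6 and IFI27 were the 2 with more than 1 match. A match describes letters and not binding.

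**Figure D1:**
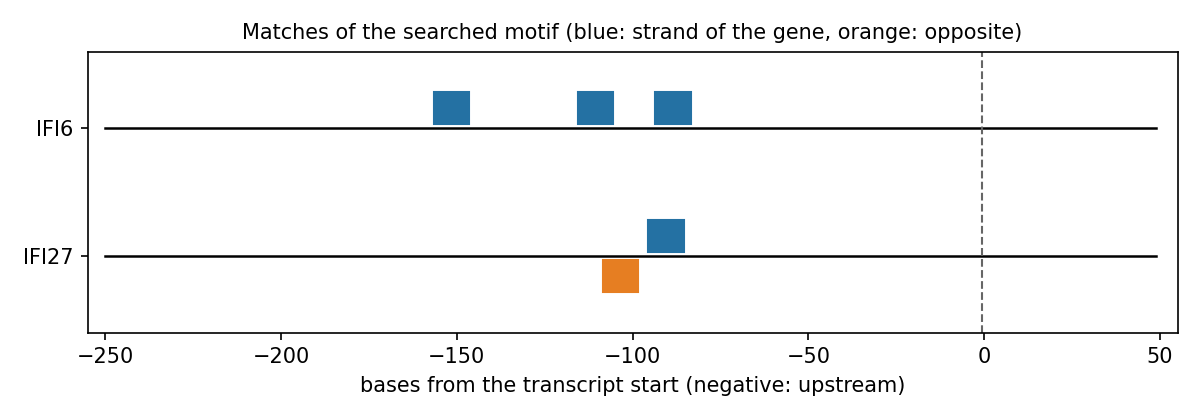
Positions of the response element core in the promoters of IFI6 and IFI27, on an axis of bases from the transcript start (dashed line), with boxes above the line for the strand of the gene and below it for the opposite strand. IFI6 has 3 boxes on its own strand and IFI27 has 1 on each.

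All 3 genes were about 2 times as high in shYTHDC2 as in NC. IFIT2 stood at 18.2, 15.9 and 17.6 FPKM in NC replicates 1 to 3 and at 38.1, 35.7 and 34.6 FPKM in shYTHDC2 replicates 1 to 3. Every shYTHDC2 library lay above every NC library, and the lowest shYTHDC2 value was 1.90 times the highest NC value. The means were 17.3 ± 1.2 and 36.1 ± 1.8 FPKM (± SD over n = 3 libraries a group, here and below), a 2.09-fold difference. On the log2(FPKM + 1) scale the difference was 1.02 (SE 0.07). More cells with the transcript and more transcript per cell cannot be told apart in such bulk libraries.

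IFI6 was the most abundant of the 3. It stood at 40.0, 36.5 and 33.4 FPKM in NC and at 72.3, 78.5 and 70.7 FPKM in shYTHDC2. The groups did not overlap here either, with the lowest shYTHDC2 library 1.77 times the highest NC library. The means of 36.6 ± 3.3 and 73.8 ± 4.1 FPKM differed by 2.02-fold (log2 difference 0.99, SE 0.09).

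IFI27 was the least abundant, at 3.07, 2.99 and 2.79 FPKM in NC and 7.42, 6.22 and 5.51 FPKM in shYTHDC2. Its shYTHDC2 libraries were more spread than its NC libraries, and the groups were apart, with the lowest shYTHDC2 value 1.80 times the highest NC value. The means were 2.95 ± 0.14 and 6.38 ± 0.96 FPKM, a 2.16-fold difference (log2 difference 0.90, SE 0.11). The added 1 FPKM lowers this log2 value for a gene at so low a level, and with 0.1 FPKM added it was 1.08.

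Of the listed genes, 100% are marked higher and significant by the authors, and in 90.5% of them every shYTHDC2 library exceeded every NC library, so the same pattern in these 3 genes carries no information of its own. The authors' deposited table gives them q-values of 3.85e-56 (IFIT2), 6.99e-28 (IFI6) and 7.77e-14 (IFI27), from a test that is not named. The listing stops at a fold of 2.00, and IFI6 lies just inside it, with the 10th lowest fold among the 318 genes with signal in NC. Genes below that fold, genes lower in shYTHDC2 and YTHDC2 itself were not analysed here, so the group labels have no check from the targeted gene.

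**Figure D2:**
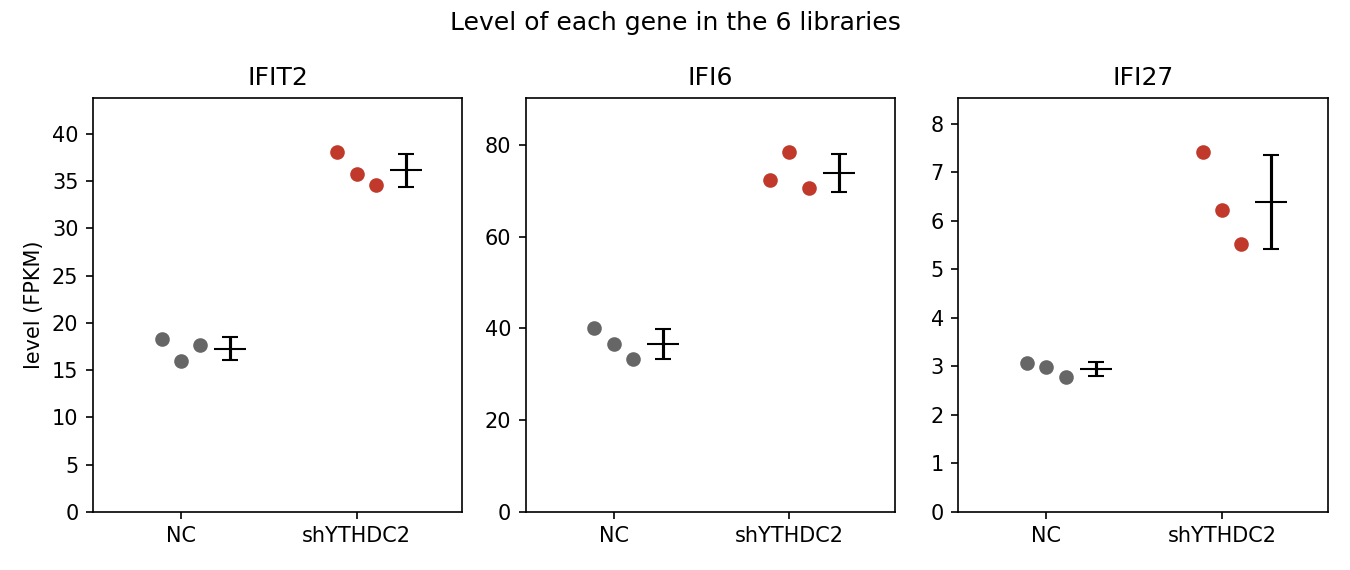
FPKM of IFIT2, IFI6 and IFI27 in each of the 3 NC (grey) and 3 shYTHDC2 (red) libraries, in order of replicate number, with the mean and SD as black marks and each vertical axis starting at 0. In each panel the shYTHDC2 points lie above the NC points, and IFI27 in shYTHDC2 has the widest spread relative to its mean.

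The order of levels was IFI6, then IFIT2, then IFI27 in all 6 libraries, without overlap between neighbours inside either group. IFIT2 in shYTHDC2 (34.6 to 38.1 FPKM) came to the range of IFI6 in NC (33.4 to 40.0 FPKM). FPKM is scaled to transcript length, so these levels can be set beside one another, within what the annotation of each gene allows.

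The 3 genes kept nearly the same proportions to one another in both groups. The ratio of IFI6 to IFIT2 was 2.19, 2.29 and 1.89 in the NC libraries and 1.90, 2.20 and 2.04 in the shYTHDC2 libraries, and the ranges overlapped. IFIT2 over IFI27 was 5.87 ± 0.51 in NC and 5.72 ± 0.57 in shYTHDC2, again overlapping. IFI6 over IFI27 was 12.4 ± 0.57 in NC and 11.7 ± 1.7 in shYTHDC2, where replicate 1 gave 9.75 and the others gave 12.6 and 12.8. Each change in a mean ratio was smaller than the SD in 1 or both groups. Each gene had been listed for a fold of at least 2, which bounds its fold from below. A change in such a ratio between groups restates the folds of its genes, so the kept proportions are no separate result.

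**Figure D3:**
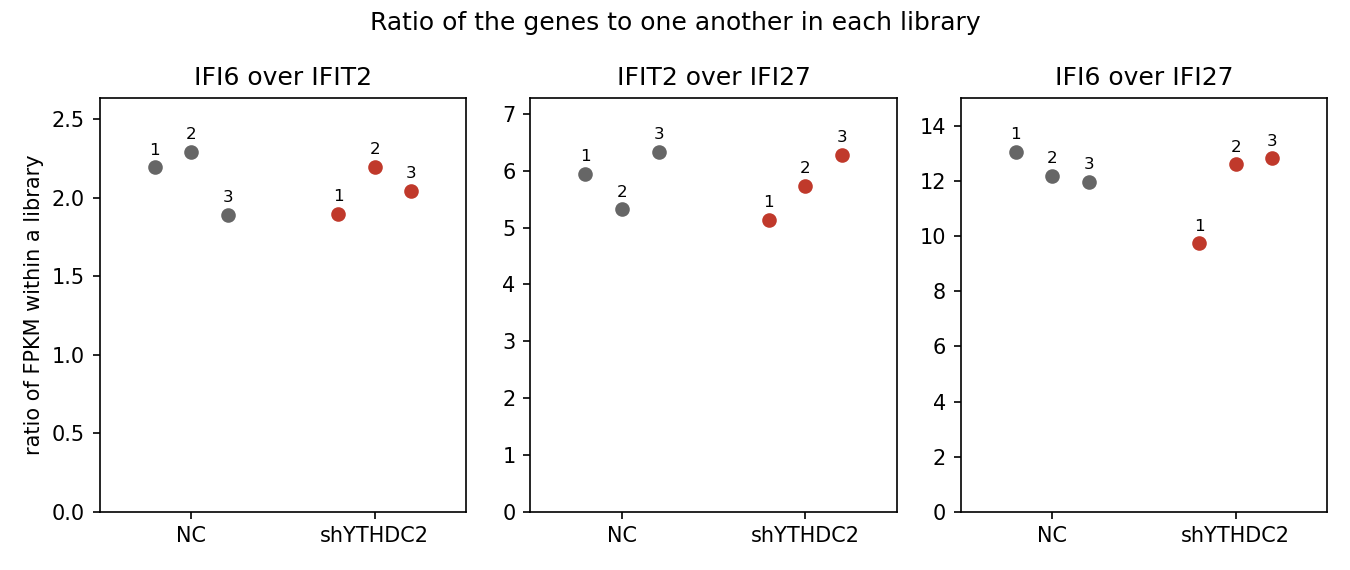
Ratio of FPKM between pairs of the 3 genes within each library, for NC (grey) and shYTHDC2 (red), with the replicate number above each point and axes starting at 0. The groups overlap for IFI6 over IFIT2, for IFIT2 over IFI27 and for IFI6 over IFI27, and shYTHDC2 replicate 1 is the lowest point in the last of these.

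Within groups the genes did not move fully together. NC replicate 1 was the highest NC library for all 3 genes, at 5.61% (IFIT2), 9.20% (IFI6) and 3.96% (IFI27) above the group mean. Replicate 3 of shYTHDC2 was the lowest of its group for all 3, most so for IFI27, which was at -13.7% from its group mean. These ranks are not particular to the 3 genes. The summed FPKM of the listed genes was also highest in NC replicate 1 (871, beside 853 and 852). Within shYTHDC2 that sum was lowest in replicate 3 (2176, beside 2229 and 2184). The replicate with the highest shYTHDC2 level was number 1 for IFIT2 and IFI27 and number 2 for IFI6. The coefficient of variation was 6.93% in NC and 4.94% in shYTHDC2 for IFIT2, and 9.04% and 5.56% for IFI6. IFI27 went the other way, with 4.90% in NC and 15.1% in shYTHDC2. The medians over listed genes whose mean reached 1 FPKM in either group were 13.0% in NC and 9.16% in shYTHDC2, so IFI27 in shYTHDC2 was the 1 case of the 6 above its median.

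**Figure D4:**
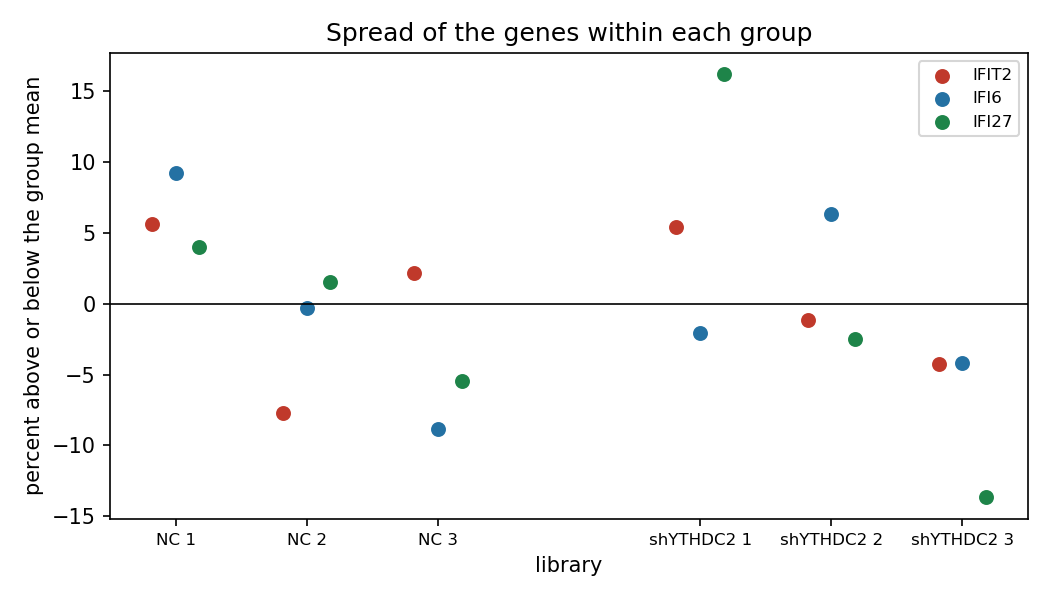
Percent by which IFIT2, IFI6 and IFI27 lay above or below their own group mean in each library, with the line at 0 as the mean. NC 1 is above the line and shYTHDC2 3 below it for all 3 genes, and the widest spread is that of IFI27 in shYTHDC2.

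Among the listed genes IFI6 and IFIT2 combined a high level with a small fold, and IFI27 was lower in level and higher in fold than both. By mean level in shYTHDC2, IFI6 ranked 5th, IFIT2 15th and IFI27 64th of 402. By difference in FPKM, IFI6 ranked 8th, IFIT2 19th and IFI27 68th. By fold, however, 3.76% of the 186 genes with signal in NC and a mean reaching 1 FPKM in either group lay below IFI6, 14.0% below IFIT2 and 25.3% below IFI27. The median fold was 2.09 over the 3 genes and 2.40 over these 186 genes, and 2.33 over the 73 whose mean reached 5 FPKM in either group. On the log2(FPKM + 1) scale, which lowers the differences of low genes, the order was the other way, with a median of 0.99 over the 3 genes and 0.88 over 187 genes. Together the 3 genes made up 6.32% to 7.04% of the summed FPKM of the table in the NC libraries and 5.09% to 5.51% in the shYTHDC2 libraries.

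The place of these genes by fold changed with single libraries. For IFI27, without shYTHDC2 replicate 1 the share of genes with a smaller fold was 9.24%, and without shYTHDC2 replicate 3 it was 38.6%. For IFI6 the share was 15.1% without NC replicate 1, 10.2% without NC replicate 2, 5.95% without NC replicate 3, 13.6% without shYTHDC2 replicate 1, 2.15% without shYTHDC2 replicate 2 and 12.0% without shYTHDC2 replicate 3. For IFIT2 it was at most 22.2%, without NC replicate 3.

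**Figure D5:**
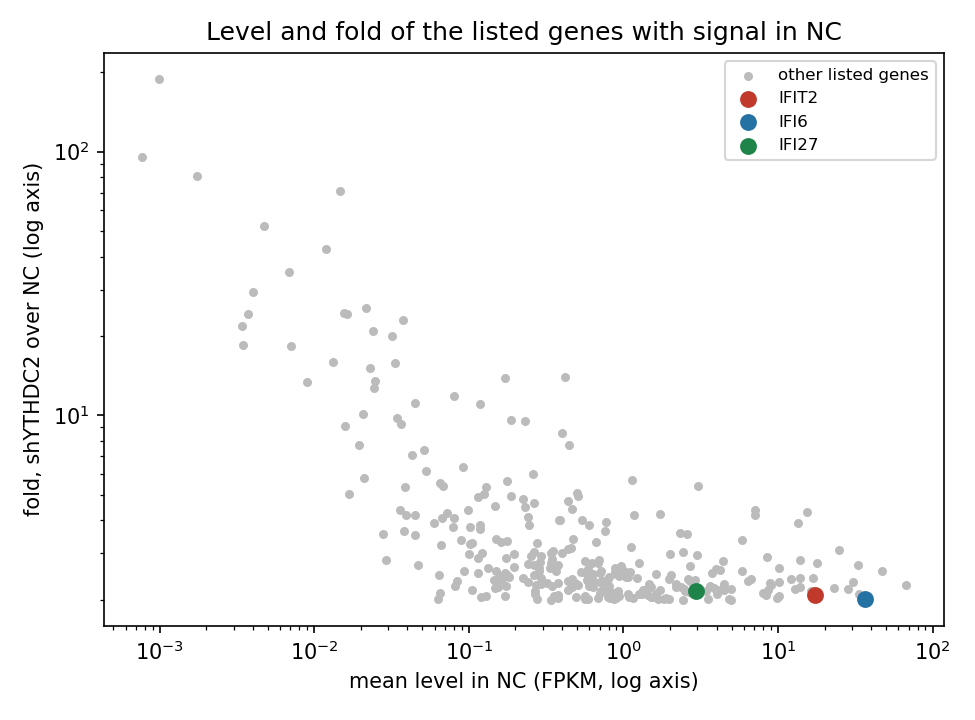
Mean FPKM in NC (horizontal, log axis) against the fold of shYTHDC2 over NC (vertical, log axis) for the 318 listed genes with signal in NC, with the 3 interferon-stimulated genes in colour. They lie at the lower edge, at folds of 2.02 to 2.16, with IFI6 and IFIT2 towards the high end of the levels.

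Genes of the interferon pathway in the table were counted from lists. The share of all measured genes that reached the table is unknown here, so the counts cannot be called low or high. Of 109 symbols on 8 lists of the pathway, older names of the same gene counted apart, 4 were present: the 3 genes above and ZBP1. The lists of ligands (10 symbols), receptors and kinases (9), transcription factors (12), antiviral effectors such as ISG15, MX1 and OAS1 (36), and feedback and antigen presentation genes such as USP18 and TAP1 (18) had 0 in the table. Nucleic acid sensors and adaptors had 1 of 15, the IFIT family 1 of 5 and the family of IFI6 and IFI27 2 of 4. The entries of both families are the 3 genes themselves, which were chosen by name. All listed genes are marked higher (100%), and absence from the table leaves the level of a gene unknown.

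ZBP1, a sensor of Z-form nucleic acid, stood at 0.0659, 0.152 and 0.0482 FPKM in NC and at 0.448, 0.209 and 0.236 FPKM in shYTHDC2. The groups were apart, at levels far under those of the other 3. The means of 0.0887 ± 0.056 and 0.298 ± 0.13 FPKM differed by 3.36-fold, and the depth behind them is unknown.

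In the deposited gene ontology annotation, an interferon term was read for 4 of 245 genes. IFI27 carried type I interferon signalling. The chemokine CCL20 (5.84 ± 0.76 FPKM in NC and 19.6 ± 3.0 in shYTHDC2) and the intermediate filament gene VIM (0.186 ± 0.091 and 0.918 ± 0.31) carried response to interferon-gamma. PDCD1LG2, a ligand of the PD-1 receptor, carried a term for lower interferon-gamma production and stood at 4.94 ± 0.65 and 9.90 ± 1.1 FPKM, a 2.00-fold difference. The entry for IFI6 was not used here.

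IFIT2, IFI6 and IFI27 lie on different chromosomes. In GRCh38 with GENCODE release 29, IFIT2 (ENSG00000119922) spans 89283694 to 89309276 on chromosome 10, plus strand. Of the 4 coding genes nearest to it outside its span, 3 are also of the IFIT family (IFIT3 at 18618 bases, IFIT1B at 68780 and IFIT1 at 83270), and none of these was in the table. IFI6 (ENSG00000126709) spans 27666061 to 27672218 on chromosome 1, minus strand, and of its 4 nearest coding genes STX12, at 100965 bases, was in the table and the others were not. IFI27 (ENSG00000165949) spans 94104836 to 94116698 on chromosome 14, plus strand, with its relatives IFI27L1 at 990 bases and IFI27L2 at 11081 bases, neither of them in the table.

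Sequence shared with other genes bears on how reads are placed. For IFI6 and IFI27, 0 of 952 and 0 of 4598 runs of 100 bases in their release 29 transcripts occurred in transcripts of another gene. For IFIT2, 257 of 4096 runs (6.27%) were shared with AL353751.1, a noncoding gene on the same strand that overlaps 8.68% of its exon bases. LIPA, a lysosomal lipase gene on the opposite strand, overlaps 1.59% of the IFIT2 exon bases. Neither was in the table, and how the authors' counting split such reads is not given in the sources used here.

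GGACT, the commonest form of the sequence in which N6-methyladenosine is placed, was counted in the longest coding transcript of each gene. IFIT2 had 4 in 3703 bases, IFI6 had 1 in 841 and IFI27 had 3 in 725. This is 1.08, 1.19 and 4.14 per kilobase, beside a median of 0.927 over 19669 genes. IFI27 lay above 99.7% of those genes, IFI6 above 65.2% and IFIT2 above 59.4%, the value of IFI27 resting on 3 matches in a short transcript. The count says nothing of whether a site is methylated.

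The genes most alike to each of the 3 across the 6 libraries were found by the root mean square difference of centred log2(FPKM + 1) values, over 173 other listed genes with a symbol. The nearest to IFIT2 was FNBP1, a formin-binding protein (0.0274), then ECE1, an endothelin-converting enzyme (0.0494), and CCDC80 (0.0582). For IFI6 they were LOX, the collagen cross-linking lysyl oxidase (0.0590), ECE1 (0.0778) and the secreted C1QTNF1 (0.0802). For IFI27 they were C1QTNF1 (0.0809), fibronectin, FN1 (0.0855), and the collagen chaperone FKBP10 (0.0931). By fold, FNBP1 (2.36) and CCDC80 (2.75) were above IFIT2 (2.09). Their NC means were 2.71 and 1.26 FPKM, low levels at which the added 1 FPKM lowers the log2 difference.

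None of these 9 places was held by another of the 3 genes. IFI6 was 23rd in likeness to IFIT2 and IFI27 was 38th, IFIT2 was 14th and IFI27 42nd for IFI6, and IFIT2 was 18th and IFI6 28th for IFI27. With 0.1 FPKM added in place of 1, 3 of the 9 places were kept: ECE1 for IFIT2, LOX for IFI6 and C1QTNF1 for IFI27. None of the 9 places was then held by another of the 3 genes either. The ranks between the 3 genes were computed with 1 FPKM added only, which lowers the difference of IFI27 most. ECE1 stood at 16.7 ± 0.96 and 35.0 ± 1.4 FPKM, LOX at 4.02 ± 0.32 and 8.49 ± 0.47 FPKM, and C1QTNF1 at 4.47 ± 0.56 and 9.71 ± 0.83 FPKM. All of these genes share the libraries and the selection for a higher level.

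Markers of squamous epithelium had 1 of 12 genes in the table, PERP. Since the table holds genes selected as higher, the cell type of the line could not be checked against its markers. Leukocyte and fibroblast markers had 0 of 10 and 0 of 6, and the endothelial list had 1 of 5, the cadherin CDH5, which ranged from 1.39 to 1.62 FPKM in NC and from 2.66 to 3.41 FPKM in shYTHDC2. Its part in the values above was not tested.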

How the data were processed

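Poly(A) RNA of 6 CAL-27 libraries was sequenced as strand-marked paired ends, per the labels' protocols. Tools in the submitters' processing notes are fastp, HISAT2, StringTie and edgeR, with the build GRCh38 and no versions or roles. The table holds, per the file headers, FPKM values deposited by the authors, their fold (a ratio, equal to the ratio of mean FPKM in all 318 genes with NC signal), its log2, and the authors' p-value and q-value. The depth is unknown, so no counting interval is given.

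Python 3.11.15 with numpy 2.4.6 and pandas 2.3.3 computed means, SDs, ratios, ranks and log2(FPKM + 1) differences with SEs. The fold, and the log2 difference and nearest profile with nothing added, were tested on simulated data. The motif search was tested on a made-up sequence. The SDs, SEs, ranks, ratios between members and the added 1 FPKM were not tested in this way. No p was computed, since the genes were chosen on this contrast, and the members and lists were chosen with earlier results of these data known. The named genes are the 3 members, listed pathway genes, the 3 nearest profiles of each member and genes annotated with interferon. Pathway lists were matched by symbol. The GGACT count and the search for shared runs were added after the data were seen. A planned comparison of protein sequences was not run. Libraries of one group shared 0 identical values above 0.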

Additional observations from a re-analysis of the deposited data

How the results depend on the processing

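The log2 differences were computed under 12 alternatives for each gene, 36 in all, of which 31 moved by less than 1 SD, 2 moved by more and 3 turned sign. Much of this count was fixed in advance. Leaving out 1 of 3 libraries cannot move a difference by 1 pooled SD, and the replicate block leaves it unchanged. Scaling within each group hardly alters the group means. The 31 are therefore no measure of robustness. The sign turned when all 6 libraries were scaled to a common median over 287 listed genes with signal in every library: it became -0.26 for IFIT2, -0.32 for IFI6 and -0.19 for IFI27. That scaling takes the typical listed gene as equal between groups and moves the median of 187 listed genes from 0.88 to -0.0460. As deposited, the 3 differences (1.02, 0.99 and 0.90) lie above that median, and after the scaling they lie below the scaled median. This change of place relative to the median, unlike the turn of sign, depends on the added 1 FPKM. Without it a common factor per library shifts every gene equally in log2. By fold, with nothing added, the 3 genes lay below the median as deposited. Their folds were 2.09, 2.02 and 2.16, beside a median of 2.40 over 186 genes. IFI27 moved to 1.08 and 1.10 with pseudocounts of 0.1 and 0.01. Leaving out each library in turn gave 0.97 to 1.06 for IFIT2, 0.93 to 1.06 for IFI6 and 0.80 to 0.98 for IFI27. The same omissions, chosen after seeing the data, gave shares of genes with a smaller fold of 11.3% to 22.2% (IFIT2), 2.15% to 15.1% (IFI6) and 9.24% to 38.6% (IFI27). The nearest profiles kept 3 of 9 genes with a pseudocount of 0.1. All 5 promoter matches held in the longer motif.

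Under a replicate block on the numbers, the differences were 1.02 (SE 0.0528), 0.99 (SE 0.0783) and 0.90 (SE 0.0799). The labels state no pairing, and deviations from the group means correlated by 0.0589, 0.151 and 0.0734 between libraries of one number, over 187 genes. Between libraries of different number the correlations were lower, from -0.125 to 0.0496. Whether the numbers mark pairs was not tested. Limits are the 3 libraries per group, the unknown depth, and a table that holds selected genes.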
